A study of Mus musculus with 44 samples.

Results

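Input RNA of differentiating C2C12 cells on day 6 was compared with input RNA on day 3, with 5 bead arrays on each day, 10 of the 44 arrays of the series. C2C12 is a mouse myoblast line. All groups used here were of this one line, with no labelled change of genotype: cells grew in medium with serum (day 0), were moved to low horse serum to differentiate, and were harvested on day 3 or day 6. Input RNA is total RNA taken without immunoprecipitation, amplified from an oligo-dT primer and labelled with biotin. The titles of these samples speak of DNA, but their descriptions name RNA, which was followed here. The 10 arrays were found by the column names of the deposited table, which start with input and give the day. The 5 input arrays of day 0 give the level of each RNA before differentiation, and the RNA recovered on beads with an antibody against the RNA-binding protein AUF1 (10 arrays of days 2, 4 and 6) or with control IgG (11 arrays) is a separate group of arrays over a similar span.

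When serum is withdrawn, myoblasts leave the cell cycle, switch on muscle transcription factors and fuse into multinucleated myotubes. Within the first days the genes of the contractile apparatus come on. Later the myotubes mature: sarcomeres align, the membrane system for calcium release is built, and some fetal isoforms of contractile proteins give way to later ones. A comparison of day 6 with day 3 therefore looks at what still changes once the main switch has been made. The table names probes by Illumina identifier with no gene beside them, so RNAs are described as probes, the labelled cell type could not be checked against its marker genes, and at most 2 probes in each direction are given by identifier. Nothing says whether the 5 arrays of a day came from separate cultures, so p-values measure the spread between these arrays.

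Between 44.7% and 48.7% of the 25697 probes were detected (detection p-value under 0.05) on each of the 10 arrays. The detected share was 46.8% ± 1.23 (SD, n = 5) on day 3 and 46.99% ± 1.65 (SD, n = 5) on day 6, a difference of 0.163 percentage points (exact permutation, two-sided p = 0.881; adjusted p = 0.881 over 2 comparisons). The mean signal was 245 ± 24.3 (SD, n = 5) and 253 ± 49.03 (SD, n = 5), a difference of 8.36 (exact permutation p = 0.754; adjusted p = 0.881). The smallest p that 5 arrays against 5 can give is 0.00794. The array numbers in the column names run from 33 to 47, and each 3 neighbouring numbers hold 1 array of day 0, 1 of day 3 and 1 of day 6. These triples are called sets 1 to 5, and the sources used here do not say what the numbers mark.

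Sets 1 and 2 stood apart from sets 3, 4 and 5 on days 3 and 6. Across the 13750 tested probes, the deviations of an array from its day's mean correlated at 0.53 on day 3 and 0.57 on day 6 between sets 1 and 2, at 0.29 on both days between sets 4 and 5, and at -0.38 to -0.66 between sets 1 or 2 and sets 3, 4 or 5. Between set 3 and sets 4 or 5 they lay at -0.18 to 0.05. Deviations from a shared mean sum to 0, so correlations between arrays of a day lean below 0 without any likeness of sets. Within a set, the deviations of the day 3 and the day 6 array correlated at 0.36 to 0.51, over 0.1 in all 5 sets. The array numbers were therefore taken to pair the arrays of these days, an assumption that the labels do not state. The column names also carry experiment numbers, which go against the pair of set 3. Its day 3 array (40) is of experiment 2 and its day 6 array (41) of experiment 3. In the other sets the day 3 and day 6 arrays share an experiment number. Deviations of day 3 and day 6 arrays from different sets correlated at -0.42 to 0.48, with the highest value between sets 1 and 2. Of the 5 day 3 arrays, 4 correlated best with the day 6 array of their own set. Of the 5 day 6 arrays, 3 correlated best with the day 3 array of their own set. Likeness of sets 1 and 2, and of sets 4 and 5, was not told apart from pairs within single sets. All results with the sets as pairs rest on this assumption. Deviations of day 0 arrays correlated with those of their own set at -0.072 to 0.14 for day 3 and at -0.23 to 0.21 for day 6. Results are given without the sets and, where they differ, within them.

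Without the sets as pairs, few RNAs were called between day 3 and day 6, and most of the calls were rises. Levels are log2 values after background correction and quantile normalization, so a rise or fall is set against the rest of the probes and a change in total RNA would not show; in such bulk RNA, fewer cells of a type and less RNA per cell cannot be told apart. Of the 13750 probes tested, 62 changed (0.451%; limma, Benjamini-Hochberg adjusted p under 0.05), 58 of them rising (0.422%) and 4 falling (0.0291%). The same fit called 37.4% of the probes between day 0 and day 3 (17.2% higher and 20.3% lower on day 3) and 42.4% between day 0 and day 6 (19.5% higher and 23% lower on day 6). The median size of the change over all tested probes was 0.13 log2 units from day 3 to day 6, against 0.34 from day 0 to day 3 and 0.38 from day 0 to day 6. The comparisons share arrays, so these values stand side by side only. The 58 rising probes rose by 0.58 to 1.94 (log2), with a median of 1.06, and 37 of them at least doubled. The falling probes changed by -0.59 to -1.22, and 1 of the 4 passed 2-fold. Over all tested probes, called or not, 66 were at least 2-fold higher and 14 at least 2-fold lower on day 6. A probe that was not called was not shown to be unchanged. At an unadjusted p under 0.05, 542 probes were higher and 427 lower on day 6, a less uneven split than among the calls.

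**Figure D1:**
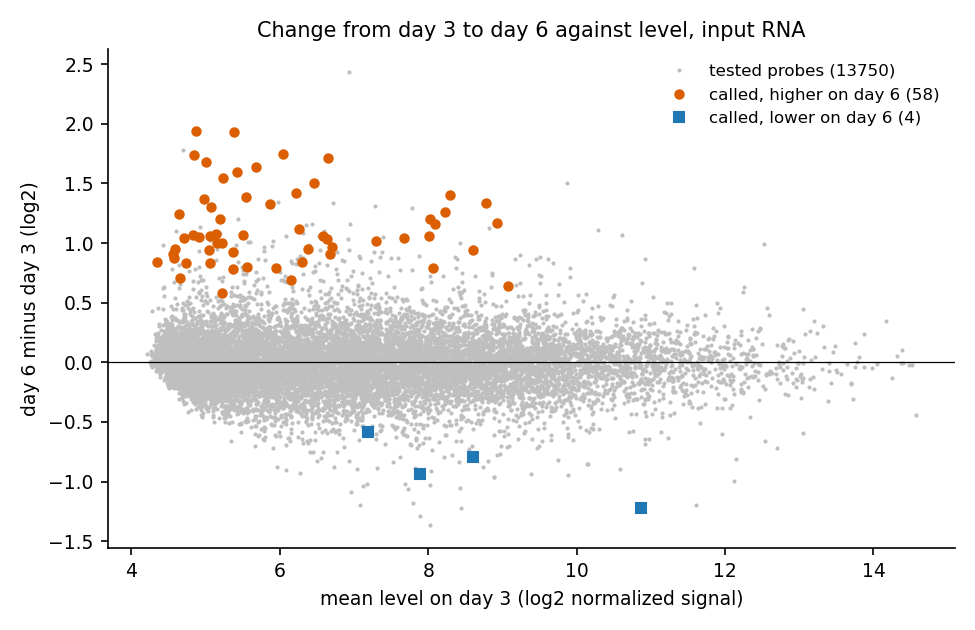
Change from day 3 to day 6 (log2, vertical axis) against the mean level on day 3 (log2 normalized signal, horizontal axis) for the 13750 tested probes in grey, the 58 called higher on day 6 as orange circles and the 4 called lower as blue squares. The rising probes lie mostly at low to middle levels, none above a level of 10, while most grey points lie close to 0.

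With the sets as pairs more probes were called. A fit of the 10 arrays of days 3 and 6 alone with the set as a replicate block, chosen after the data were examined, called 390 of 12924 probes (3.02%), 260 rising (2.01%) and 130 falling (1.01%), and these held all 62. The set as a block in the fit with the day 0 arrays called 86 (0.625%), 72 rising (0.524%) and 14 falling (0.102%), and held 56 of the 62. Leaving out single arrays lowered the 62 to 37 and 36 without arrays 43 and 46 of day 3, and to 37, 37 and 35 without arrays 41, 44 and 47 of day 6. Without both arrays of set 2, 4 or 5 the count was 35, 25 and 26, and in sets 1 and 2 alone 35. In sets 3, 4 and 5 alone it was 79, of which 73 rose and 6 fell, and these held 36 of the 62 and 0 of the 4 fallers. A fit of the 10 arrays of days 3 and 6 alone without pairs called 59, and these held 41 of the 62.

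The called probe with the highest rise, ILMN_2915833, was not detected in growing cells and rose on both later days. On day 0 it stood between 4.23 and 4.39 (log2) and was detected on 0 of 5 arrays. On day 3 its level was 5.28, 4.84, 4.69, 4.99 and 4.55 in sets 1 to 5, detected on 4 of 5 arrays. On day 6 it was 6.57, 6.93, 6.88, 6.98 and 6.72, and detected on all 5. All day 6 values lay above all day 3 values, with a gap of more than a log2 unit. The deposited signals show the same order: on day 0 they lay within 46.8 to 52.7, on day 3 within 57.4 to 78.5, and on day 6 within 113.6 to 194.4. The rise from day 3 to day 6 was 1.94 ± 0.14 (log2, SE; limma adjusted p = 1.1e-06), with differences of 1.29 to 2.19 within the sets. Without background correction the change was 1.00.

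ILMN_1245118, second by size among the called probes, followed the same course with a clearer difference between sets. It was detected on 0 of 5 arrays on day 0 (levels 4.25 to 4.52) and on all 5 on day 3. Its day 3 levels were 5.12, 4.98, 5.46, 5.83 and 5.49 in sets 1 to 5. On day 6 they were 6.76, 6.66, 7.76, 7.65 and 7.71. Sets 1 and 2 were the lowest on both days, and the groups did not overlap. The rise was 1.93 ± 0.22 (log2, SE; limma adjusted p = 0.000254), and within the sets it was 1.64, 1.68, 2.29, 1.82 and 2.22. Without background correction it was 1.16.

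The falling probes moved by less. ILMN_2714031, an abundant RNA in growing cells, stood at 12.33, 12.38, 11.22, 11.94 and 11.70 (log2) on day 0. On day 3 it was at 11.25, 11.11, 9.77, 11.25 and 10.95 in sets 1 to 5. On day 6 it was at 9.63, 9.70, 9.44, 9.71 and 9.72. It was below day 0 on day 3 (mean change -1.05, limma adjusted p = 0.00392) and below day 3 on day 6, by -1.22 ± 0.26 (SE; limma adjusted p = 0.0461). The day 3 array of set 3 lies close to the day 6 arrays, and the difference in that set was -0.33, against -1.23 to -1.61 in the other sets. The paired fit of 10 arrays gave -1.22 with an adjusted p of 0.00295.

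ILMN_2859619 rose first and fell later. It was low on day 0, at 4.56, 4.69, 4.43, 5.49 and 5.22 (log2), and detected on 3 of 5 arrays. On day 3 it was at 7.71, 7.99, 7.65, 7.72 and 8.36, and on day 6 at 6.78, 6.81, 6.92, 7.10 and 7.14. The days did not overlap. The change from day 3 to day 6 was -0.93 ± 0.20 (log2, SE; limma adjusted p = 0.0457), between -0.62 and -1.22 within the sets, and the paired fit of 10 arrays gave an adjusted p of 0.00240. Its day 6 level was still above day 0 (limma adjusted p = 2.3e-07). Without pairs, the call of ILMN_2859619 was lost when any 1 of the 10 arrays was left out, and that of ILMN_2714031 when any but array 40 was, with adjusted p up to 0.14 for ILMN_2714031 and 0.13 for ILMN_2859619.

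**Figure D2:**
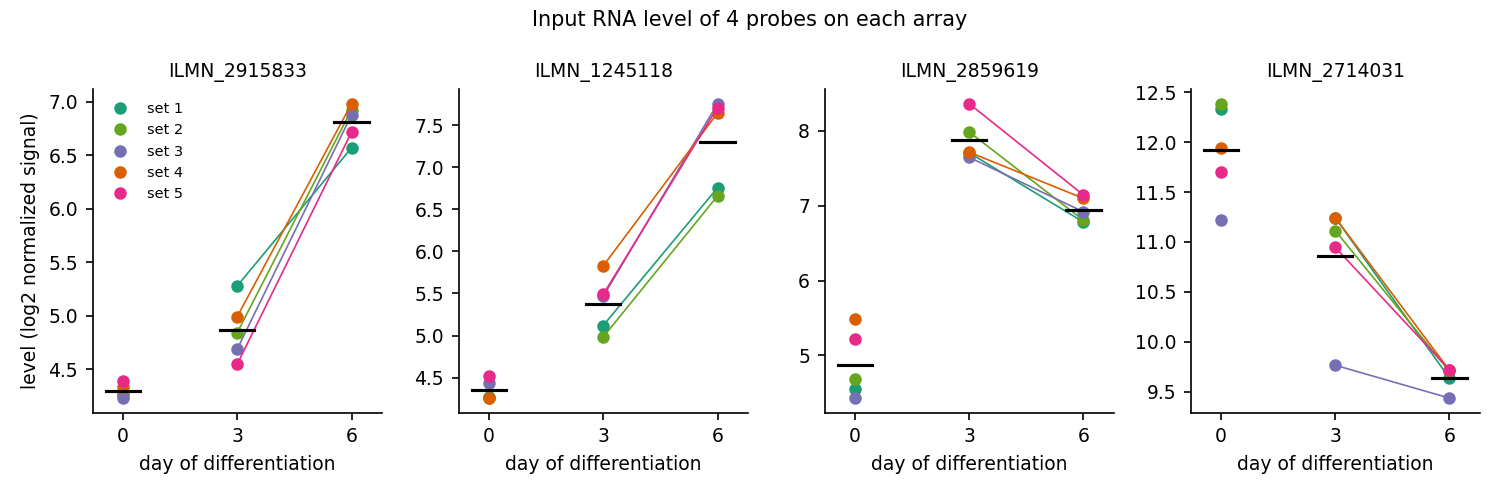
Level (log2 normalized signal, vertical axis, a separate scale in each panel) of the 2 called probes with the highest rise and the 2 called probes with the strongest fall on each of the 15 input arrays, by day of differentiation. Points are arrays coloured by set, lines join day 3 to day 6 within a set and black bars are means of 5 arrays. Day 3 and day 6 do not overlap in any panel, and the day 3 array of set 3 stands low for ILMN_2714031, at 9.77.

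The other called fallers were small changes of well-detected RNAs. One had mean levels of 8.38, 8.60 and 7.80 (log2) on days 0, 3 and 6 and fell after day 3 by 0.80 ± 0.15 (SE; limma adjusted p = 0.0171). The other had means of 6.68, 7.19 and 6.60 and fell by 0.59 ± 0.12 (limma adjusted p = 0.0407), a call that the set block in all 15 input arrays did not keep (adjusted p = 0.0501) and the paired fit of 10 arrays did (adjusted p = 0.0154). It had risen by day 3 (limma adjusted p = 0.00278), and its day 6 level was not called different from day 0 (adjusted p = 0.651).

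Many of the rising probes were RNAs that were scarce in growing cells. Of the 58, 21 were detected on 0 of the 5 day 0 arrays (36.2%), against 4.32% of all tested probes, and 20 on all 5 (34.5%), against 73.5% of all. A probe was tested only if 3 or more input arrays detected it. Probes not detected on day 0 were thus tested only because of later arrays. Some of the 58 reached this limit only with their day 6 arrays, which favours a rise. These shares therefore describe the called probes and do not test them. The median levels of the 58 on days 0, 3 and 6 were 4.57, 5.53 and 6.83 (log2), while the median of all tested probes was 6.44, 6.43 and 6.43. On day 3, 43 of the 58 were already detected on all 5 arrays, 14 on 1 to 4 and 1 on none. On day 6, 56 were detected on all 5 and 2 on 4. By level on day 3, 13 of the 58 lay under 5 (3241 tested probes), 21 between 5 and 6 (2715) and 12 between 6 and 7 (2080). Another 2 lay between 7 and 8 (1897), 10 between 8 and 10 (2659) and 0 above 10 (1158). The share called higher was 0.401% under 5, 0.773% between 5 and 6 and 0.376% between 8 and 10. The fallers lay at levels from 7.19 to 10.9.

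Detection alone, which does not depend on the normalization, gave few RNAs that appeared or vanished after day 3. Of all 25697 probes, 5 were detected on all 5 day 6 arrays and on 0 day 3 arrays, and 0 the other way round. On all 10 arrays 9933 probes were detected, and on none of them 10652. Between day 0 and day 6, by contrast, 184 probes went from 0 to 5 arrays and 94 from 5 to 0. The looser limit of at least 4 arrays on 1 day and at most 1 on the other gave 67 probes gained and 46 lost after day 3, and 6 of the 67 were among the 58.

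The rising probes were sorted into 3 courses by whether day 3 was called different from day 0. The calls of day 3 against day 0 and of day 6 against day 3 share the day 3 arrays, so a low day 3 value favours both a fall and a later rise. The first course was continued rise: 30 of the 58 had risen by day 3, where 17.2% of all tested probes had, and rose again by day 6. Their medians were 4.47, 5.90 and 7.25 (log2) on days 0, 3 and 6. In this group 14 were detected on 0 day 0 arrays. The one with the highest level on day 6 had means of 7.16, 8.78 and 10.1, a late change of 1.33 ± 0.22 (SE; limma adjusted p = 0.00618). In 43 of the 58 the change after day 3 was larger than the change from day 0 to day 3, and the rest were all of this course. In one of the rest, singled out after its values were seen, most of the rise came early, with means of 4.41, 8.22 and 9.49.

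The second course was a rise called only after day 3. For 20 of the 58 the change from day 0 to day 3 was not called, between -0.27 and 0.45 (log2) with a median of 0.31. Their median levels were 4.57, 4.92 and 6.34 on days 0, 3 and 6. Lack of a call does not show that they stayed level until day 3. The one with the smallest p was higher by 0.37 on day 3 than on day 0 (limma adjusted p = 0.0557). All 20 were called higher on day 6 than on day 0 (19.5% of all tested probes were). The 20 were chosen by a rise on the same day 6 arrays, so this was nearly fixed and is not a test. Of the 20, 7 were detected on 0 day 0 arrays. Not all were dim: the one with the highest level on day 6 had means of 8.58, 8.93 and 10.1, with a late rise of 1.17 ± 0.20 (SE; limma adjusted p = 0.00712).

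The third course was a dip. Another 8 of the 58 had fallen by day 3, by -0.46 to -1.96 (log2), and rose again by day 6. Of all tested probes 20.3% had fallen by day 3, so a fall by then was not more frequent among the 58. The medians of the 8 were 7.27, 5.95 and 6.95 on days 0, 3 and 6. All 8 were detected on all 15 input arrays (66.3% of all tested probes were). For 6 of them day 6 and day 0 were not called different, and 2 were still lower than on day 0. The widest dip had means of 9.25, 7.30 and 8.31 (late rise 1.02 ± 0.16, SE; limma adjusted p = 0.00570). The dip with the smallest p of its late rise ran from 6.21 to 5.07 and back to 6.37 (1.30 ± 0.15; adjusted p = 0.000254).

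**Figure D3:**
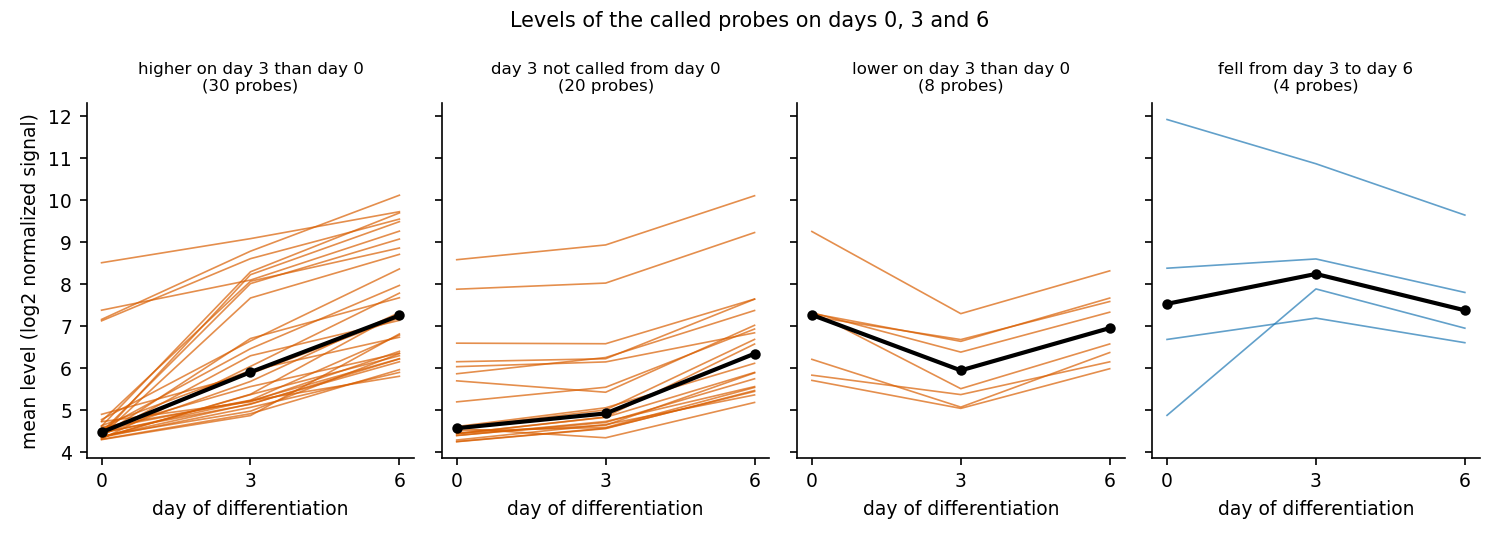
Mean level (log2 normalized signal, vertical axis) on days 0, 3 and 6 of each called probe as a thin line, with the median of each panel in black. From left to right are the 30 rising probes that had also risen by day 3, the 20 not called by day 3, the 8 that had fallen by day 3, and the 4 that fell from day 3 to day 6.

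The rise was present in every set. The median difference of day 6 minus day 3 over the 58 was 0.99, 1.04, 1.20, 1.09 and 1.20 (log2) in sets 1 to 5, while the median over all tested probes was within 0.02 of 0 in each. Of the 58, 57 were higher on day 6 in all 5 sets, against 7.6% of all tested probes, and 51 had day 6 values that did not overlap those of day 3, against 1.39% of all. The 4 fallers were lower in all 5 sets (8.08% of all probes) and did not overlap (1.05%). The calls rest on the same values, so these counts describe the called probes and do not test them. The exception was 1 dipping probe, which was higher by 0.74 to 1.70 in 4 sets and differed by -0.13 in set 3.

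**Figure D4:**
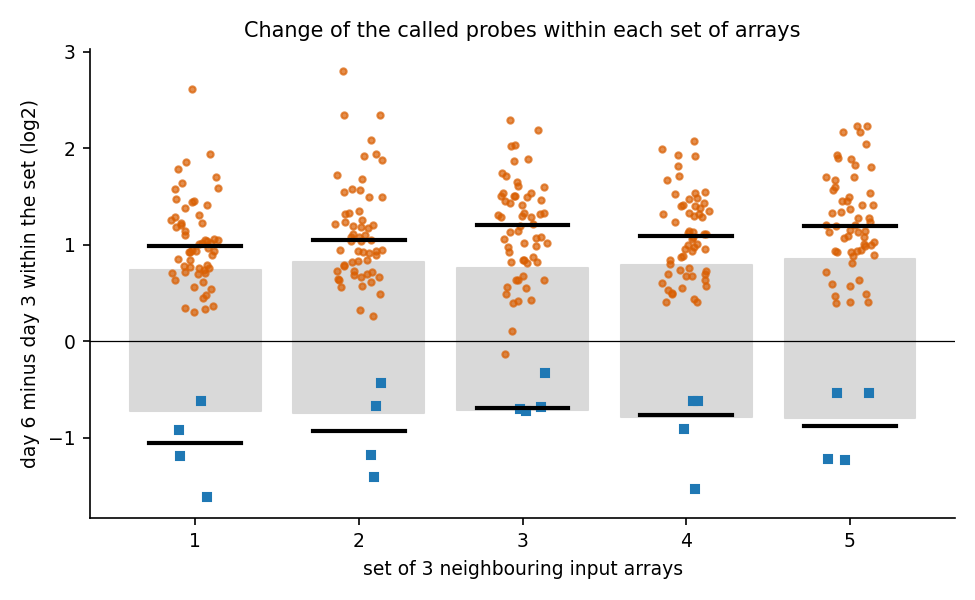
Difference of day 6 minus day 3 (log2, vertical axis) within each of the 5 sets of neighbouring input arrays (horizontal axis) for the 58 rising probes (orange circles) and the 4 falling ones (blue squares), with black bars for medians. Grey boxes span the middle 95% of all 13750 tested probes. The medians of the rising probes lie between 0.99 and 1.20 in all sets.

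An RNA whose level differed between sets on both days was called only with the sets as pairs. The highest mean rise of all tested probes, 2.44 ± 0.70 (log2, SE), was not called (limma adjusted p = 0.207). This probe, singled out after its values were seen, stood at 5.20, 5.38, 7.39, 8.54 and 8.14 on day 3 in sets 1 to 5. On day 6 it stood at 7.87, 7.39, 10.1, 10.9 and 10.5. The days overlapped because sets 1 and 2 were more than 2 log2 units below the others on either day, yet the rise within the sets was 2.00 to 2.75. The paired fit of 10 arrays called it (adjusted p = 6.4e-06).

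With the sets as pairs, more of the calls were falls of abundant RNAs. The 260 rising probes of that fit changed by 0.44 to 2.42 (log2; median 0.76) and its 130 falling ones by -0.47 to -1.35 (median -0.64), with 61 and 12 of them past 2-fold. In the normalization of those 10 arrays the fallers' median level on day 3 was 8.16. It was 6.48 for the risers and 6.58 for all 12924 probes tested there. The shares of all probes that follow are over the 13750 of the fit with the day 0 arrays, a different set. Of the fallers 93.8% were detected on all 15 input arrays, against 48.8% of the risers and 66.3% of the 13750. By day 3, where 17.2% of all tested probes had risen and 20.3% had fallen, 143 of the 260 risers had risen, 20 had fallen and 97 were not called. Of the 130 fallers, 34 had risen by then, 34 had fallen and 62 were not called. Against day 0, 19.5% of all tested probes were called higher on day 6 and 23% lower. Of the 260 risers, 225 were called higher and 7 lower in that comparison, and of the 130 fallers 19 were called higher and 74 lower. The comparisons share arrays, so these counts are a description.

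The RNA recovered on beads gave values for a similar span on other arrays, with day 6 set against the mean of days 2 and 4. In the IgG pulldown 6 of 13812 probes changed (0.0434%; limma adjusted p under 0.05), and in the AUF1 pulldown 956 (6.92%), of which 538 rose and 418 fell. AUF1 arrays of day 6 had 39.9% ± 5.99 (SD, n = 4) of the probes detected, against 29.7% ± 5.56 (n = 3) on day 2 and 32.3% ± 7.68 (n = 3) on day 4. For IgG the shares were 43.05% ± 4.93 (n = 4), 41.2% ± 1.78 (n = 3) and 40.1% ± 9.80 (n = 4). Without the 5 pulldown arrays on which under 30% of the probes were detected, 432 probes were called with AUF1 (219 higher) and 2 with IgG. With the experiment number of the column names as a replicate block, 2824 were called with AUF1 (1560 higher, 1264 lower) and 129 with IgG (70 higher, 59 lower). Without single arrays the AUF1 count was 463 to 1202, and it was 463, 502, 537 and 577 without arrays 8, 16, 22 and 32. The IgG count was 1 to 39 without single arrays, the 39 without array 15, and 1, 1, 2, 2, 3, 3 and 3 without arrays 23, 31, 3, 21, 7, 11 and 27.

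Of the 58 probes that rose in input, 51 were tested in the pulldowns. In the IgG pulldown 37 of the 51 were higher on day 6 (72.5%), against 51.3% of all tested probes, with a median change of 0.17 (log2) against 0.01, and 10 had an unadjusted p under 0.05 in that direction (19.6%) against 4.09% of all. None passed the adjusted test (limma; 0 of 51), and 0 were lower at an unadjusted p under 0.05. In the AUF1 pulldown 31 of the 51 were higher (60.8%), against 56.5% of all, with a median of 0.09 against 0.07, and 10 had an unadjusted p under 0.05 in that direction (19.6%) against 12.9% of all. Here 3 were called higher (3.9% of all tested probes were) and 2 called lower (3.03% of all). Without the 5 arrays of low detection, 30 of 50 were higher with IgG (60%, against 52.5% of all) and 28 of 50 with AUF1 (56%, against 55.0% of all), and 1 was called higher with AUF1. Under median scaling, which moved the median of all probes to 0.61 with AUF1 and 0.12 with IgG, 20 and 34 of the 51 lay above that median, against 26 and 37 under quantile normalization.

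Single probes differed between input and pulldown. ILMN_2915833 also rose with AUF1, where it stood at 4.24 ± 0.02 (log2, SD, n = 3) on day 2, 4.29 ± 0.02 (n = 3) on day 4 and 4.94 ± 0.30 (n = 4) on day 6, a change of 0.67 ± 0.15 (SE; limma adjusted p = 0.00719). It was detected on 0 of the 6 AUF1 arrays of days 2 and 4 and on 2 of 4 on day 6. With IgG it was detected on 1 of 4 arrays on day 4 and on 3 of 4 on day 6. It was thus tested in the pulldowns only because of day 6 arrays, and its earlier AUF1 levels lay near background, which limits this call. With IgG its change was 0.55 ± 0.14 (limma adjusted p = 0.219). ILMN_1245118 was higher by 0.97 ± 0.33 with AUF1 (limma adjusted p = 0.0758) and by 1.04 ± 0.32 with IgG (adjusted p = 0.342), neither of which passed the test. ILMN_2714031 went the other way: it fell in input from day 3 to day 6 and rose in the AUF1 pulldown, from 8.22 ± 0.76 (SD, n = 3) on day 2 and 8.58 ± 0.12 (n = 3) on day 4 to 9.61 ± 0.76 (n = 4) on day 6, by 1.21 ± 0.37 (SE; limma adjusted p = 0.0456). With IgG it was higher by 0.89 ± 0.36 (adjusted p = 0.581). The difference between its changes in input and on beads was not tested, and the days compared are not the same. All 4 fallers had a positive AUF1 change (56.5% of all tested probes did), of 0.28 to 1.21, and of these only that of ILMN_2714031 passed the test. With IgG 2 of the 4 were above 0 and 2 below, from -0.36 to 0.89.

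**Figure D5:**
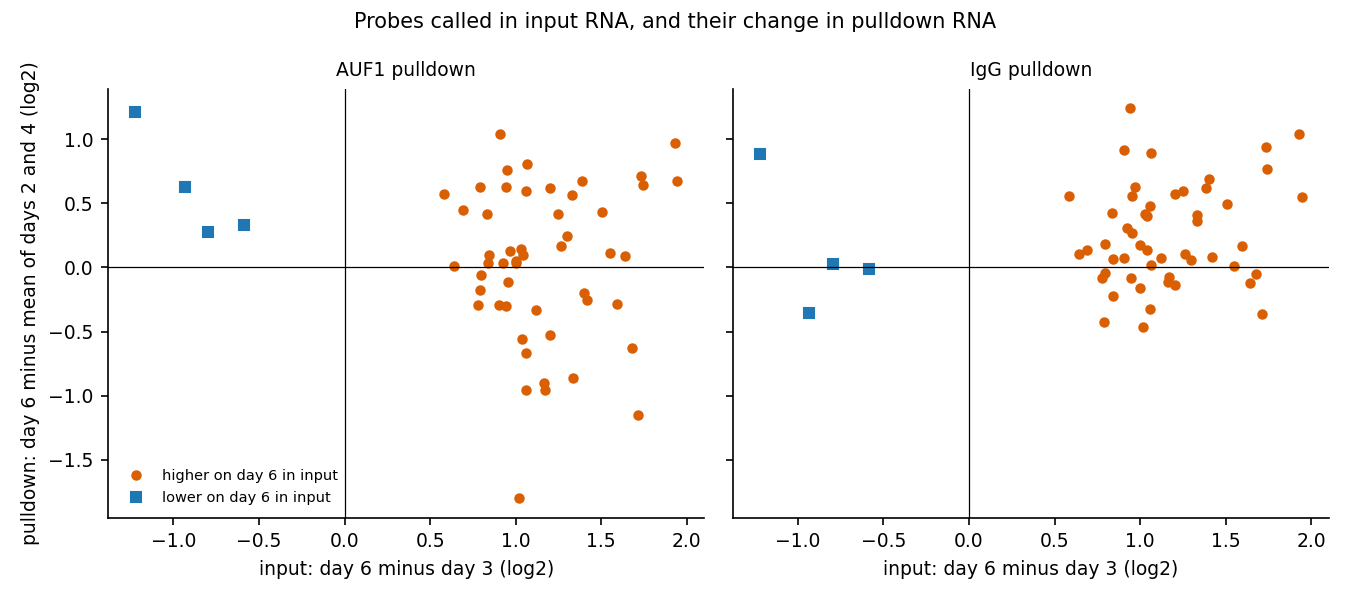
Change in pulldown RNA, day 6 minus the mean of days 2 and 4 (log2, vertical axis), against the change in input RNA, day 6 minus day 3 (log2, horizontal axis), for the called probes that were tested in both. The left panel shows AUF1 and the right panel IgG. Of the 51 rising probes 31 lie above 0 with AUF1 and 37 with IgG, and of the 4 fallers 4 lie above 0 with AUF1 and 2 with IgG.

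The risers that departed most on beads were found after their values were seen. Of the 2 called lower with AUF1, one changed by -1.80 ± 0.36 (log2, SE; limma adjusted p = 0.00376) and with IgG by -0.47 ± 0.35, and it was the probe with the widest dip in input. The other changed by -1.15 ± 0.34 (adjusted p = 0.0414), against a rise in input of 1.71 ± 0.27 (adjusted p = 0.00421). Of the 6 probes called in the IgG pulldown, all higher on day 6 and all called higher with AUF1 too, 0 were called in input without pairs, where their changes ran from -0.61 to 1.51. The one at 1.51 rose on beads by 3.13 with IgG (limma adjusted p = 3.6e-06) and by 2.52 with AUF1 (adjusted p = 0.000114), and its input means were 4.60, 9.87 and 11.4 on days 0, 3 and 6. In input it was higher on day 6 in 5 of 5 sets, by 1.21 to 1.99, and the paired fit of 10 arrays called it (adjusted p = 0.000173). Its input change without pairs had a limma adjusted p of 0.415.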

How the data were processed

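Per the file headers, the deposited table holds non-normalized bead intensity for 25697 probes on 44 arrays. A deposited detection p-value, which tests a probe against negative controls, stands beside each intensity. GenomeStudio 1.6.0 is listed in the submitters' processing notes. Any background subtraction by the authors was not given in the sources used here. Columns were assigned to groups by name.

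Input arrays (15) and pulldown arrays (29) were each corrected for background by the normal-exponential model with 16 added, quantile normalized and taken to log2 (neqc, limma 3.58.1, R 4.3.3). A probe was tested if 3 or more arrays detected it (p under 0.05), by a linear model with group means (lmFit, eBayes, Benjamini-Hochberg); the script was tested on simulated data. The number of arrays limits the precision. Named probes are the 2 highest and 2 lowest log2 changes among the calls; the gene lists planned were not analysed here. Members, lists and rules were chosen with earlier results of these data known. Alternatives were background, scaling, filter, blocks, weights and left-out arrays. The experiment numbers of the pulldown columns were not taken as pairs: deviations of same-numbered arrays correlated with day 6 at -0.10 to 0.46 (day 2) and 0.19 to 0.62 (day 4) for AUF1, and at -0.14 to 0.48 and -0.15 to 0.58 for IgG.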

Additional observations from a re-analysis of the deposited data

Results flagged for a closer look

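For ILMN_2714031 the day 3 input array of set 3 stood apart from the other 4 of its day, at 9.77 (log2) against 10.9 to 11.2, with a gap of 0.799 of the whole range. Chance singles out about 1 group in 20, and 18 groups were looked at, so a single such value has little weight.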

How the results depend on the processing

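All 62 called probes kept their direction in every alternative in which they were tested (58 of them in sets 1 and 2 alone, 59 under the stricter detection limit, and all 62 in the others). They were chosen on these same arrays, so their direction was nearly fixed and does not test them. Still called were 13 of the 58 in sets 1 and 2 alone, 21 of the 62 under median scaling and 24 without set 4. All 62 stayed called in the paired fit of 10 arrays. The 2 named rising probes kept their calls in all 31 alternatives, and ILMN_2714031 and ILMN_2859619 lost theirs in 20 and 21. The input count of 62 became 22 under median scaling, 40 with no detection filter, 128 with array weights (99 rising, 29 falling) and 27 at adjusted p under 0.01. The replicate block of array sets gave 86, and 390 in the 10 arrays of days 3 and 6; with the experiment number as block it was 78. It was 35 without sets 3, 4 and 5 and ran from 25 to 60 when 1 array or 1 set was left out. The detected share difference ran from -0.297 to 0.737 points without single arrays, turning negative without arrays 46 (-0.297), 35 (-0.126) and 41 (-0.259), and the mean signal difference from -10.8 to 20.5, negative without array 41 (-10.8). For the AUF1 pulldown 956 became 1676 under median scaling, 1647 under scaling by mean and SD, 2987 with array weights, 2824 with the experiment number as replicate block and 350 for day 6 against day 4, and ran from 463 to 1202 without single arrays. For IgG the 6 became 1 with its arrays alone, 2645 with array weights, 129 with the replicate block and 0 for day 6 against day 4 (limma; 936 at an unadjusted p under 0.05), and ran from 1 to 39. The cause was not tested. Probes near background are limited by their signal.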
